A study of Mus musculus with 3 samples.

Results

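Natural killer (NK) cells from the brains of glioblastoma-bearing mice were taken from droplet single-cell RNA counts by a gate on transcripts. A cell was a member when it held at least 1 UMI of at least 2 of the 6 NK genes *Ncr1*, *Klrb1c*, *Klra4*, *Klra8*, *Klre1* and *Eomes*, and no UMI of *Cd3d*, *Cd3e*, *Cd8a*, *Cd8b1* or *Csf1r*. This left 75 NK cells of 4269 kept cells. All cells came from female C57BL/6 mice of 6 to 8 weeks that carried BT0309 brain tumor-initiating cells in the right striatum, a single line derived from NPcis mice, which carry mutant *Nf1* and *Trp53*, and marked with firefly luciferase and GFP, so vehicle and niacin libraries share the tumor. The vehicle control replicate 2 library came from mice given saline, and niacin replicates 1 and 2 from animals that received a daily niacin dose of 100 mg/kg starting on day 7, all collected 4 weeks after implantation and sorted for live cells. Each library is a pool, of 5 mice by the methods and of 4 brain tissues by the sample labels. The members numbered 55, 6 and 14 in the vehicle control 2, niacin 1 and niacin 2 libraries.

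NK cells are innate lymphocytes that kill stressed, infected or transformed cells without a rearranged antigen receptor. They weigh signals from inhibitory receptors, many of which bind MHC class I, against activating receptors that signal through small adaptor proteins such as DAP12 (*Tyrobp*), DAP10 (*Hcst*) and the Fc receptor gamma chain (*Fcer1g*). Killing is carried by granules with perforin (*Prf1*) and granzymes, and activated cells release interferon-γ and chemokines.

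The libraries held 2270, 2145 and 2532 barcodes, and 484, 918 and 898 of these were also present in another library. After the removal of shared barcodes with less than 5-fold the UMIs of their copy, 1264, 1411 and 1594 cells remained with median depths of 3276, 5128 and 5231 UMIs. NK cells were unevenly deep, with medians of 1492, 2000 and 7207 UMIs and median mitochondrial shares of 10.7%, 8.11% and 4.19%. Their summed counts were 129325, 23379 and 87680 UMIs, so values from niacin 1 rest on 6 cells and the smallest total. CD8 T cells had medians of 5631, 5779 and 6624 UMIs and mitochondrial medians of 5.97%, 6.43% and 4.83%. Of the 55 vehicle control members, 35 had fewer than 2000 UMIs. No caller of doublets was run, and no member lay above the 95th percentile of UMIs in its own library.

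NK cells made up 4.35% of cells in vehicle control 2 (55 of 1264 cells, exact 95% binomial interval 3.29% to 5.63%). The share was 0.425% in niacin 1 (6 of 1411, 0.156% to 0.923%) and 0.878% in niacin 2 (14 of 1594, 0.481% to 1.47%). The vehicle control interval lay above both niacin intervals, but these intervals cover counting error only, and 1 vehicle library allows no test of niacin. Among NK cells and CD3-positive cells together, the shares were 18.9%, 3.45% and 7.49%. The gap was smaller among well covered cells. With at least 2000 UMIs, 20 of 800 (2.50%, 1.53% to 3.83%), 3 of 1071 (0.280%, 0.0578% to 0.816%) and 13 of 1148 cells (1.13%, 0.604% to 1.93%) were NK cells, and the vehicle control 2 and niacin 2 intervals then overlapped. With at most 10% mitochondrial UMIs the shares were 2.73%, 0.332% and 0.896%. Another 28, 1 and 2 cells met the gate but not the limits on genes or mitochondrial UMIs. The part of depth and mitochondrial share in the difference was not tested.

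**Figure D1:**
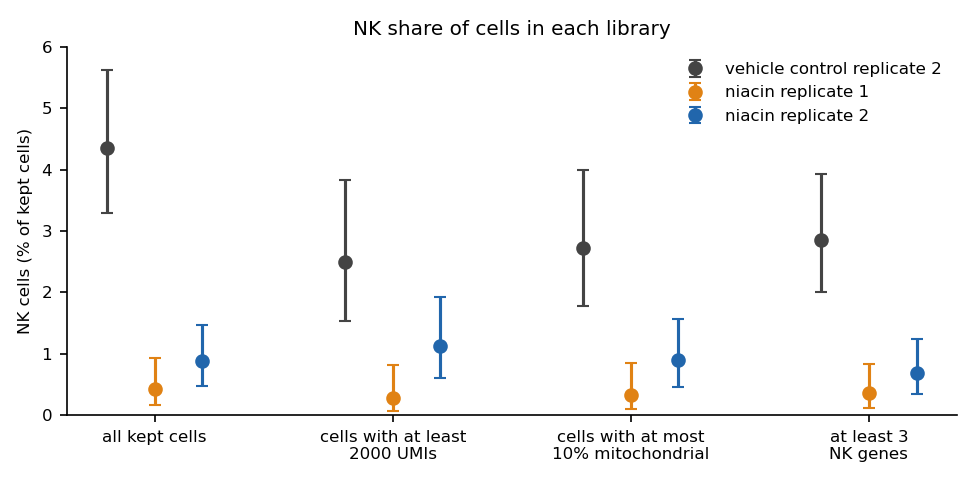
Share of NK cells among kept cells (%, y axis) in each library, for all kept cells and under 3 stricter settings; points are shares and bars exact 95% binomial intervals. Vehicle control 2 was highest in each setting, at 4.35% over all kept cells and 2.50% among cells with at least 2000 UMIs.

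The gate values themselves chose the members and are given without a test. *Klre1* and *Klrb1c*, which encodes the NK1.1 antigen, were the gate genes found in most members. After each cell was thinned to 1000 UMIs, which left out 8, 1 and 0 shallower members, *Klre1* had a UMI in 60.6% of 66 members, *Klrb1c* in 57.6%, *Klra8* in 43.9%, *Ncr1*, which encodes the receptor NKp46, in 40.9%, *Klra4* in 28.8% and *Eomes*, a T-box transcription factor of NK cells, in 24.2%. At the edge of the gate, 23 members held exactly 2 of the 6 genes and 38 excluded cells held exactly 1. In vehicle control 2, *Gzma* was found in 78.9% of the 19 members with 2 genes and in 35.5% of the 31 cells with 1 gene, while *Prf1* went the other way, at 26.3% and 48.4%. A further 55 cells with at least 2 NK genes were left out because they held *Cd3d* or *Cd3e*, 39 of them in vehicle control 2.

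Transcripts outside the gate were read beside the label. *Gzma* and *Prf1* are markers of that label, so they are no independent check of it. *Gzma* and *Prf1*, which encode granzyme A and perforin, were found in 84.8% (56 of 66, 73.9% to 92.5%) and 47.0% (31 of 66, 34.6% to 59.7%) of thinned members. In microglia, a class gated to hold none of the 6 NK genes, the shares were 1.42% and 0.489% of 2047 cells. Their median unthinned depth was 5542 UMIs, against 2121 in the NK cells. Microglia of vehicle control 2 held *Gzma* in 6.94%, beside 91.5% of its NK cells. The source of these microglial UMIs was not tested. The T cell receptor constant gene *Trac* was found in 1 of 66 thinned members, against 44.8% of 125 CD8 T cells. *Cd3g* went against the label. It encodes the third CD3 chain, was not part of the gate, and had UMIs in 6 of the 75 unthinned members, 1 in vehicle control 2 and 5 in niacin 2, with up to 20 UMIs in a cell and none of *Trac* in the same cells. *Trbc1* had UMIs in 62 of 75 members. The group is therefore one without *Cd3d* and *Cd3e* UMIs rather than without every CD3 transcript.

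**Figure D2:**
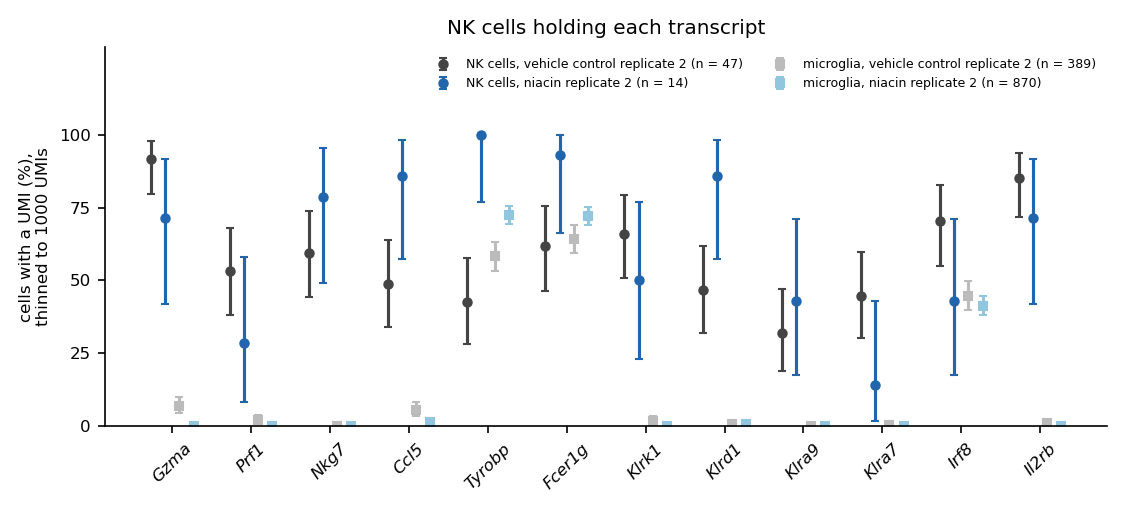
Share of cells with a UMI of each gene after thinning to 1000 UMIs (%, y axis), in NK cells and microglia of vehicle control 2 and niacin 2; bars are exact 95% binomial intervals. *Gzma* was present in 91.5% and 71.4% of NK cells, and *Tyrobp*, *Fcer1g* and *Irf8* were also frequent in microglia.

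To find what set NK cells apart from the T cells of the same brains, their summed counts were compared with 126 CD8 T cells (*Cd3d* or *Cd3e* with *Cd8a* or *Cd8b1*) and 129 CD4 T cells (*Cd3d* or *Cd3e* with *Cd4*), each with at most 1 NK gene and no *Csf1r*. All genes of the gates were left out of the tests. A gene passed the count filter when 1 class alone reached its level, and could then only be called higher in that class. This holds for *Tyrobp*, *Fcer1g*, *Irf8*, *Itga2*, *Itgam*, *Itgax*, *Ccl3* and *Serpinb9*, which were low in both T cell classes. It also holds for *Trac*, *Bcl11b* and *Ly6a*, which were low in NK cells. The direction of these calls was set by the filter. Against CD8 T cells, 94 of 2503 genes were higher in NK cells (3.76%) and 82 were lower (3.28%), 7.03% in all, at an adjusted p under 0.05 by edgeR's quasi-likelihood test. Against CD4 T cells, 115 of 2515 were higher (4.57%) and 95 lower (3.78%), 8.35% in all. The 76 genes higher in both were 80.9% and 66.1% of the 2 higher lists, and the 51 lower in both were 62.2% and 53.7% of the lower lists. Without library as a block, the counts were 50 and 29 against CD8 T cells and 72 and 44 against CD4 T cells. Niacin 2 carried many calls, as without it 48 genes were higher and 32 lower than in CD8 T cells, and 55 lower than in CD4 T cells. Without vehicle control 2, 146 genes were lower than in CD8 T cells. With at least 2000 UMIs per cell, 109 genes were higher and 134 lower than in CD8 T cells. Against CD4 T cells these counts were 99 and 102. NK cells of vehicle control 2 were shallower than its CD8 T cells, and the part of depth and RNA quality in single calls was not tested.

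The lectin-like receptors encoded side by side on chromosome 6 were higher in NK cells wherever they could be tested. The genes with symbols *Klra* to *Klrk*, without *Klrg*, lie at chr6:128609227-131247362 (GRCm38, GENCODE annotation), and 21 of these 24 genes had UMIs in NK cells. Besides the 4 gate genes among them, 10 were tested in each comparison, and all 10 were higher in NK cells than in either T cell class, against a background of 3.76% and 4.57% of genes. The gate bears on this count, since members were chosen on 4 genes of the cluster and T cells were held to at most 1 NK gene. *Klri2*, with 60 UMIs in NK cells and 0 in CD8 T cells, passed the count filter through NK cells alone and could only be called higher. The count is therefore a description and no independent support for the label. Members of this cluster are close paralogs, and reads of one may have been assigned to another or dropped, so the level of a single member is uncertain.

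Among the inhibitory receptors, all 6 tested genes of 15 were higher in NK cells in both comparisons, beside 3.76% and 4.57% of all tested genes. The median log2 fold change was 2.87 over CD8 T cells and 7.49 over CD4 T cells, beside medians of -0.013 and -0.027 over all tested genes. *Klra9*, *Klra7* and *Cd244* had no UMI in CD4 T cells, so there they passed the count filter through NK cells alone. They could then only be called higher, and the gate on NK genes bears on the *Klra* members. *Klra9*, a Ly49 receptor, stood at 425, 471 and 1266 CPM, the class's UMIs scaled to a fixed total, in NK cells of vehicle control 2, niacin 1 and niacin 2. It stood at 17, 0 and 6 CPM in CD8 T cells and had no UMI in CD4 T cells. The classes did not overlap, and the log2 fold change over CD8 T cells was 6.47 ± 0.51 (SE, adjusted p = 1.27e-09, edgeR). Against CD4 T cells it was at least 170-fold higher, taking 3 counts over the whole group as the floor. *Klra7*, another Ly49 receptor, reached 673, 428 and 468 CPM against 34, 43 and 102 CPM in CD8 T cells, and it was at least 132-fold higher than in CD4 T cells, where it had no UMI. *Cd244*, the 2B4 receptor, reached 348, 171 and 376 CPM and was at least 78.6-fold higher than in CD4 T cells. *Klrd1*, which encodes CD94, the partner chain of NKG2 receptors, was detected in both T cell classes and was still higher in NK cells, at 758, 1027 and 1517 CPM against 259, 242 and 297 CPM in CD8 T cells (log2 fold change 1.82 ± 0.30, adjusted p = 1.20e-04, edgeR). That call was lost without niacin 2.

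The Ly49 genes with a UMI were counted in single cells. A transcript can be missed in a cell that expresses it at this depth, so differing receptor sets between cells were not tested. Of 11 Ly49 genes (*Klra* symbols), a thinned member held a median of 2 and at most 6, 36 of 66 held 2 or more and 8 held none. *Klra7* was found in 21 of 47 thinned members of vehicle control 2 (44.7%, 30.2% to 59.9%) and 2 of 14 of niacin 2 (14.3%, 1.78% to 42.8%). *Klra9* was found in 15 of 47 (31.9%, 19.1% to 47.1%) and 6 of 14 (42.9%, 17.7% to 71.1%). The intervals overlapped for both genes. The members were few, and 2 of the 6 gate genes are Ly49 genes, which raises these counts.

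Of the activating receptors, 10 of 14 were tested, and the same 5 genes, *Klrk1*, *Klrc2*, *Klrb1a*, *Klrb1f* and *Klri2*, were higher in NK cells in both comparisons. The shares of all tested genes higher in NK cells were 3.76% and 4.57%. All 5 receptor genes belong to the chromosome 6 cluster, so the gate bears on them as well. *Klrk1* encodes NKG2D, the receptor for stress-induced ligands on tumor cells. It stood at 1454, 684 and 947 CPM in NK cells, against 146, 144 and 155 CPM in CD8 T cells, with a log2 fold change of 2.57 ± 0.32 (adjusted p = 1.94e-06, edgeR). It was found in 59.1% of thinned NK cells, 8.80% of CD8 T cells and 2.38% of CD4 T cells. *Klrc2*, which encodes NKG2C, stood at 967, 813 and 764 CPM against 135, 137 and 59 CPM in CD8 T cells. *Klri2* had no UMI in CD8 T cells and was at least 63.0-fold higher in NK cells. *Cd226*, an adhesion receptor that recognizes nectin-like ligands, went the other way. It was lower than in CD8 T cells, at 62, 43 and 262 CPM against 287, 293 and 263 CPM, and the niacin 2 levels were alike. *Slamf6* and the costimulatory receptor gene *Cd28* were lower than in CD4 T cells.

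Of the adaptors and kinases that signal below these receptors, 12 and 13 genes were tested, and 3 were higher in each comparison. Over all tested genes 3.76% and 4.57% were higher. *Tyrobp* stood at 1028, 2866 and 3148 CPM in NK cells against 22, 27 and 22 CPM in CD8 T cells, a log2 fold change of 6.40 ± 0.43 (adjusted p = 9.44e-11, edgeR). *Fcer1g* stood at 1693, 1754 and 2874 CPM against 62, 31 and 56 CPM, a log2 fold change of 5.22 ± 0.38. Both were as distinct from CD4 T cells, at 6.17 ± 0.39 and 6.16 ± 0.37. *Txk*, a Tec family kinase, was also higher in both comparisons, and *Lat*, the scaffold of T cell receptor signaling, was lower in both. *Hcst* was at 271, 471 and 844 CPM in NK cells and 466, 780 and 1110 CPM in CD8 T cells.

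*Tyrobp*, *Fcer1g*, *Irf8*, *Itgam* and *Itgax* are also myeloid genes, so myeloid markers were read beside them. *Tyrobp* was found in 57.6% of thinned NK cells and 69.1% of thinned microglia, but in 1.60% of CD8 T cells from the same libraries. Of the 5 monocyte and macrophage markers, 2 to 4 had UMIs in NK cells, with summed levels of 595, 684 and 433 CPM against 101, 152 and 111 CPM in CD8 T cells. *Ccr2*, which NK cells also express, gave 59, 11 and 33 of these UMIs, while *Ms4a7* had none. The 5 microglia markers summed to 193, 257 and 125 CPM against 95.5, 125 and 161 CPM, with *Tmem119* at 0 UMIs. The granulocyte markers summed to 789, 599 and 182 CPM against 84.3, 355 and 130 CPM, with *Csf3r* and *Cxcr2* found in vehicle control 2 alone. Leaving out every cell with at least 2 markers of 1 such lineage left 42, 1 and 7 NK cells and 8 higher and 16 lower genes against CD8 T cells. *Fcer1g* (log2 fold change 5.25) and *Prf1* (3.13) were still called there, and *Gzma* (2.55) was not. The part of RNA or cells of other lineages in the remaining differences was not tested.

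In the cytotoxic granule list, 5 of 13 tested genes were higher than in CD8 T cells and none was lower, beside 3.76% and 3.28% of all tested genes. *Gzma* stood at 9078, 5432 and 5212 CPM in NK cells and 1371, 35 and 340 CPM in CD8 T cells, without overlap (log2 fold change 4.07 ± 0.54, adjusted p = 4.05e-06, edgeR). *Prf1* stood at 1206, 513 and 627 CPM against 22, 82 and 93 CPM (3.29 ± 0.41, adjusted p = 1.94e-06, edgeR). *Gzmb* and the granzyme inhibitors *Serpinb9* and *Serpinb6b* were the other higher genes. *Nkg7*, a granule membrane protein, was at 1693, 3379 and 2657 CPM in NK cells and 854, 1092 and 1484 CPM in CD8 T cells, a difference that missed the threshold (log2 fold change 0.96 ± 0.32, adjusted p = 0.070, edgeR). In vehicle control 2 its NK level was 562 CPM in the 35 members under 2000 UMIs and 2252 CPM in the 20 deeper ones. Against CD4 T cells 8 of 12 tested genes were higher, *Nkg7*, *Ctsw* and *Fasl* included, beside 4.57% of all tested genes. There *Gzma* reached a log2 fold change of 8.24 ± 0.50. The list medians were 0.76 and 2.52. Leaving out any of the 3 libraries kept the calls of *Gzma* and *Prf1* in both comparisons.

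**Figure D3:**
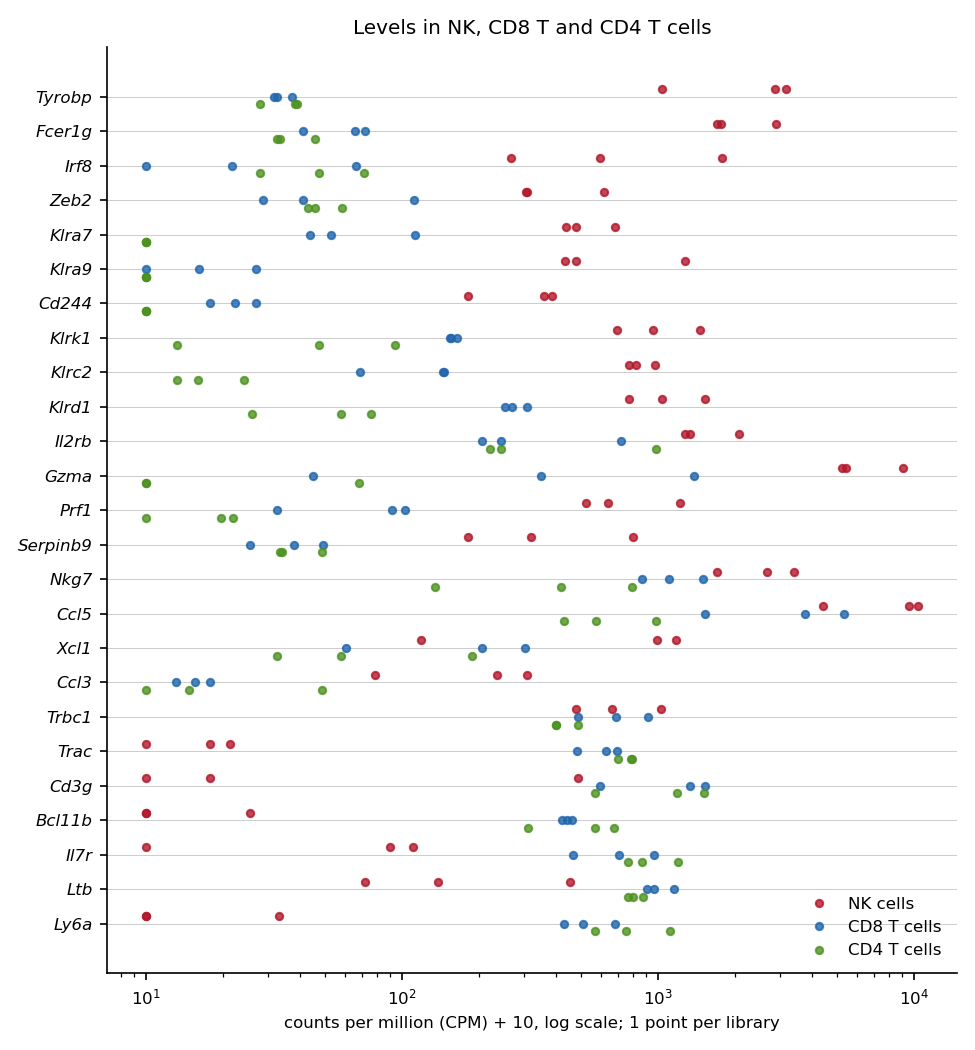
Level of 25 genes in NK, CD8 T and CD4 T cells, as CPM + 10 on a log axis (x), with 1 point per library and class. The NK points of *Tyrobp*, *Fcer1g*, *Gzma* and *Prf1* lie to the right of all T cell points, and those of *Trac*, *Bcl11b* and *Ly6a* to the left.

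The promoters of *Ncr1*, a gate gene, and of *Gzma* and *Prf1*, granule genes higher in NK cells than in T cells, are shown. Each is given as the 250 bases before the start site (RefSeq, GRCm38.p6, the most upstream start listed), written 5′ to 3′ on the strand of the gene. Capitals mark the RUNX motif TGTGGTT or its reverse complement AACCACA. *Ncr1* lies on the plus strand at chr7:4337465-4337714, *Gzma* on the minus strand at chr13:113100982-113101231 and *Prf1* on the plus strand at chr10:61297586-61297835.
Ncr1: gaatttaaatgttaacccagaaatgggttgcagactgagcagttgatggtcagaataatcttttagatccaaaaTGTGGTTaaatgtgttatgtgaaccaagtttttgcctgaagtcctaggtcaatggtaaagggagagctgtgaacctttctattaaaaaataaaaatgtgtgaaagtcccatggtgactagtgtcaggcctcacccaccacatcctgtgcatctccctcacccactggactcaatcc
Gzma: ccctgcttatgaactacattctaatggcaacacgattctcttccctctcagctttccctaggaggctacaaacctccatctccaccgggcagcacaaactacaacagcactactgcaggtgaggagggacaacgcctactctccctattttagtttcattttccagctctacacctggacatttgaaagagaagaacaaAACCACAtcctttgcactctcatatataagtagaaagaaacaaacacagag
Prf1: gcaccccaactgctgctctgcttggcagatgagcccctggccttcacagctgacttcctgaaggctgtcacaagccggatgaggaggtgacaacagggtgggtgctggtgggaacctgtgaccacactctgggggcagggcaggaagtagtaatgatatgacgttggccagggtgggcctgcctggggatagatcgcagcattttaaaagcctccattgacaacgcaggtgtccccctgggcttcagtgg
The motif stands once in each of the *Ncr1* and *Gzma* windows, and the *Prf1* window holds none of the 3 motifs searched. Of the 76 genes higher in both comparisons 57 matched a listed promoter, and 6 of them held the RUNX motif on either strand (10.5%), beside 4.06% of the 1822 genes tested in both and 5.08% of all 27025 genes. The T-box motif AGGTGTGA or TCACACCT was in 1 of 57 (1.75%), beside 0.823% and 1.30%. The ETS motif CCGGAAGT or ACTTCCGG was in 0 of 57, beside 6.37% and 3.23%. None of these motifs overlaps another in the 3 windows printed, and a match describes the letters only.

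Of the secreted cytokines and chemokines, 4 of 8 tested genes were higher than in CD8 T cells and 1 was lower. Over all tested genes the shares were 3.76% and 3.28%. *Ccl3*, an inflammatory chemokine, was at 224, 299 and 68 CPM in NK cells and 6, 8 and 3 CPM in CD8 T cells (log2 fold change 4.73 ± 0.61, adjusted p = 2.67e-06, edgeR). *Xcl1*, which attracts cross-presenting dendritic cells, was at 108, 984 and 1163 CPM against 51, 195 and 294 CPM (1.74 ± 0.32, adjusted p = 4.40e-04, edgeR), higher within each library although the classes overlapped across libraries. *Ccl4* and *Tgfb1* were higher as well, and *Ltb*, a lymphotoxin chain, was lower in both comparisons. *Ccl5*, another inflammatory chemokine, was at 4384, 10394 and 9535 CPM against 1517, 3732 and 5303 CPM, and only the comparison with CD4 T cells passed (3.49 ± 0.32 against 1.10 ± 0.36 with adjusted p = 0.063, edgeR). Its NK level in vehicle control 2 was 468 CPM in members under 2000 UMIs and 6316 CPM in deeper ones. *Ifng* was at 240, 0 and 205 CPM in NK cells. The niacin 1 value rests on 0 UMIs, with an exact 95% Poisson upper bound of 158 CPM.

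Of the cytokine receptors, 3 of 8 tested genes were higher than in CD8 T cells and 1 was lower, beside 3.76% and 3.28% of all tested genes. *Il2rb*, the β chain that IL-2 and IL-15 share, was at 2057, 1326 and 1266 CPM in NK cells and 708, 234 and 195 CPM in CD8 T cells (log2 fold change 2.02 ± 0.32, adjusted p = 7.04e-05, edgeR). It was found in 81.8% of thinned NK cells, 25.6% of CD8 T cells and 32.5% of CD4 T cells, beside 0.342% of microglia. *Il18rap*, an IL-18 receptor chain, was at 719, 214 and 114 CPM against 101, 16 and 12 CPM (2.88 ± 0.40). *Il7r* was lower, at 101, 0 and 80 CPM against 455, 956 and 693 CPM in CD8 T cells, with log2 fold changes of -3.11 and -3.50. The other tested receptors of the list did not pass in both comparisons.

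Of 16 tested transcription factors, 2 were higher and 3 lower than in CD8 T cells, beside 3.76% and 3.28% of all tested genes. *Irf8*, which acts in NK cells as well as in myeloid cells, was at 1763, 257 and 582 CPM against 56, 12 and 0 CPM in CD8 T cells (log2 fold change 5.28 ± 0.48, adjusted p = 1.34e-08, edgeR). *Zeb2*, a factor of late NK maturation, was at 603, 299 and 297 CPM against 101, 31 and 19 CPM (2.93 ± 0.37). *Bcl11b*, required for T cell commitment, was at 15, 0 and 0 CPM in NK cells against 410, 452 and 433 CPM (-5.73 ± 0.58), and *Tcf7* and *Lef1* were also lower in both comparisons. In niacin 1, however, *Tcf7* was at 214 CPM in NK cells and 148 CPM in CD8 T cells. *Tbx21* (T-bet) and *Runx3* were higher than in CD4 T cells. *Id2*, which restrains B and T cell programs, was at 1778, 813 and 1551 CPM and did not pass in either comparison.

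Of the maturation and adhesion genes, *Itga2*, the CD49b chain that marks conventional NK cells, was at 479, 171 and 125 CPM against 6, 16 and 3 CPM in CD8 T cells (log2 fold change 4.65 ± 0.54, adjusted p = 6.31e-07, edgeR). *Itgam*, the CD11b chain gained with maturation, was at 217, 385 and 80 CPM against 6, 4 and 3 CPM (5.25 ± 0.63), and *Itgax* was higher in both comparisons (6.16 ± 0.65 and 5.72 ± 0.67). *Thy1* was lower in both, and *Ly6c2* was lower than in CD8 T cells (-2.19 ± 0.35) but higher than in CD4 T cells (2.88 ± 0.44). *Cxcr3* was lower in both comparisons.

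**Figure D4:**
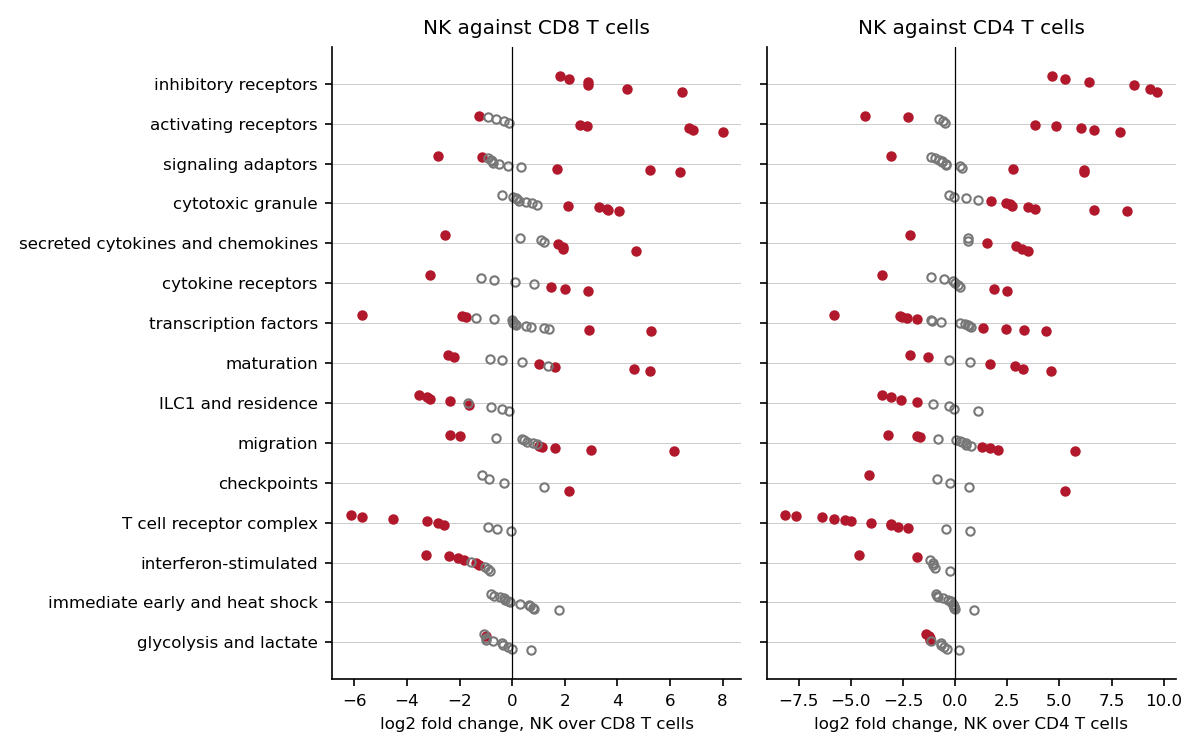
Log2 fold change of each tested gene of 15 lists, NK over CD8 T cells (left) and over CD4 T cells (right); filled points passed an adjusted p under 0.05 and open points did not. The 6 inhibitory receptors all lie to the right of 0 in both panels.

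T cell receptor genes were lower in NK cells. The gate removed *Cd3d* and *Cd3e* from NK cells and required them in T cells, so these values follow the gate. Of this list 6 of 9 tested genes were lower than in CD8 T cells and 11 of 13 lower than in CD4 T cells, and none was higher. Among all tested genes 3.28% and 3.78% were lower. *Trac* was at 8, 0 and 11 CPM against 472, 616 and 683 CPM in CD8 T cells. *Trbc1* was not among the lower genes. It was at 1021, 471 and 650 CPM in NK cells against 478, 909 and 677 CPM in CD8 T cells (log2 fold change -0.033 ± 0.35), while *Trbc2*, the other β chain constant gene, was lower in both comparisons, at 193, 43 and 456 CPM against 955, 1505 and 1605 CPM. The β chain constant genes are close paralogs. *Ly6a* (Sca-1) was lower too, at 23, 0 and 0 CPM against 500, 421 and 671 CPM. *Fam169b* had no UMI in NK cells and was at least 9.73-fold lower than in CD8 T cells and at least 8.92-fold lower than in CD4 T cells. It passed the count filter through the T cells alone and could only be called lower.

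Of the interferon-stimulated genes, 6 of 10 tested were lower than in CD8 T cells, 2 of 7 were lower than in CD4 T cells and none was higher. Lower shares over all tested genes were 3.28% and 3.78%. *Ifi27l2a* was at 201, 0 and 0 CPM in NK cells against 866, 503 and 578 CPM in CD8 T cells and 3000, 647 and 1102 CPM in CD4 T cells. *Bst2* was lower than in CD8 T cells, a call that was lost without library as a block. In the glycolysis list *Gapdh* was lower in both comparisons, and *Aldoa*, *Pgk1* and *Ldha* lower than in CD4 T cells. The proliferation marker *Mki67* was in 0 of 66 thinned NK cells, where 3 counts would be 4.55%, and in 1.60% of CD8 T cells. This limits cells with a UMI at that depth, not cells expressing the gene. Checkpoint genes were sparse. *Klrc1* (NKG2A) was higher in both comparisons, *Ctla4* was lower than in CD4 T cells, and *Havcr2* had no UMI in NK cells.

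Of 9 tested genes in the list of type 1 innate lymphoid cells and tissue residence, none was higher than in CD8 T cells and 5 were lower. Among all tested genes 3.76% were higher and 3.28% lower. The 5 lower genes were *Cxcr6*, *Il7r*, *Cd69*, *Itgae* and *Cd3g*, the last a CD3 chain whose value follows the gate. *Cxcr6*, a receptor of tissue-resident lymphocytes, had UMIs in 8 of 14 members of niacin 2 and in none of the 55 and 6 members of the other libraries. CD8 T cells held it in every library, at 360, 597 and 847 CPM. These 8 cells were picked by their *Cxcr6* UMIs, so their other genes are described without a test. All 8 held *Tyrobp*, 7 held *Ncr1*, 7 held *Klrb1c*, 7 held *Itga1* (CD49a) and 7 held *Klrc1*, while none held *Eomes*, 1 held *Klra4* or *Klra8* and 7 held some Ly49 gene. Of the 6 niacin 2 members without *Cxcr6*, 4 held *Eomes*, 6 held *Klra4* or *Klra8*, so all 6 held a Ly49 gene, and 1 held *Itga1*. *Gzma* gave 109 UMIs in 4 of the 8 cells and 348 UMIs in all 6 others. *Xcl1* gave 95 and 7 UMIs and *Cd7* 44 and 12 UMIs in these groups, whose median depths were 6410 and 7521 UMIs. *Cd3g* had UMIs in 4 of the 8 cells and in 1 of the 6, and *Trac* in 0 and 1.

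Levels in niacin and vehicle NK cells are given without a test, because 1 vehicle library and sums of few cells allow none. Of 2134 genes with at least 20 UMIs, 197 were at least 2-fold higher in both niacin libraries (9.23%) and 224 at least 2-fold lower (10.5%), with a median of the mean log2 ratios of -0.28 over all of them. With every shared barcode dropped, 164 genes were higher and 34 lower, and the median was 0.24, so the balance between higher and lower genes turned with the treatment of shared barcodes. Of these 421 genes, 333 could also be read among members with at least 2000 UMIs, and 196 met the rule there.

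Of 14 cytotoxic granule genes read, none was at least 2-fold higher and 2, *Gzmb* and *Serpinb9*, at least 2-fold lower in both niacin libraries. Over all 2134 genes 9.23% were higher and 10.5% lower by this rule, so the count of 2 is near that share. The median log2 ratio of the list was -0.016, beside -0.28 over all genes. *Nkg7* was at 1693, 3379 and 2657 CPM, lowest in vehicle control 2. *Gzma* was at 9078 CPM (exact 95% Poisson interval 8566 to 9612) in vehicle control 2 and 5432 and 5212 CPM in niacin 1 and 2, which is within 2-fold. Among members with at least 2000 UMIs it was at 11766, 4422 and 5328 CPM, at least 2-fold lower in both niacin libraries. CD8 T cells gave 1371, 35 and 340 CPM, so there too vehicle control 2 was highest. *Gzmb*, granzyme B, was at 2235 CPM against 214 and 1015 CPM, past the 2-fold rule, and CD8 T cells gave 972, 74 and 49 CPM. *Prf1* was at 1206, 513 and 627 CPM in NK cells but at 22, 82 and 93 CPM in CD8 T cells. *Serpinb9* was at 789, 171 and 308 CPM, *Ccl4* at 789, 43 and 297 CPM, and *Irf8* at 1763, 257 and 582 CPM. The niacin 1 values of *Gzmb* and *Irf8* rest on 5 and 6 UMIs. Those of *Serpinb9* and *Ccl4* rest on fewer, *Ccl4* under the floor of 3 counts. *Zeb2* and *Itga2* were also at least 2-fold lower in both niacin libraries, *Itga2* with 4 UMIs in niacin 1. *Serpinb9*, *Irf8*, *Zeb2* and *Itga2* were chosen after their values were seen and were not among the 6 most negative ratios.

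Other transcripts stood highest in the niacin libraries. *Ccl5* was at 4384 CPM in vehicle control 2 and at 10394 and 9535 CPM in niacin 1 and 2. With at least 2000 UMIs per cell the levels were 6316, 12136 and 9746 CPM, so niacin 2 was then within 2-fold. CD8 T cells gave 1517, 3732 and 5303 CPM. *Tyrobp* was at 1028, 2866 and 3148 CPM, and at 1420, 3291 and 3183 CPM in the deeper members. *Xcl1* was at 108, 984 and 1163 CPM and *Cd7* at 46, 684 and 639 CPM. In niacin 2, 95 of 102 *Xcl1* UMIs and 44 of 56 *Cd7* UMIs came from the 8 *Cxcr6*-positive cells. *S100a4* was at 31, 171 and 1403 CPM, resting on 4 UMIs in each of vehicle control 2 and niacin 1. The hemoglobin transcript *Hbb-bs*, an erythroid RNA, was at 15, 428 and 217 CPM in NK cells, and at 17, 484 and 161 CPM in CD8 T cells and 10, 402 and 206 CPM in CD4 T cells.

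The shallow members of vehicle control 2 bear on these levels and, through the NK sums, on the comparisons with T cells. Its 35 members under 2000 UMIs had a median mitochondrial share of 12.7% and ribosomal protein transcripts at 2.65% of UMIs. In its 20 deeper members the values were 4.27% and 11.5%. *Ccl5* was at 468 CPM in the shallow members and 6316 CPM in the deeper ones, *Tyrobp* at 234 and 1420 CPM, and *Gzma* at 3628 and 11766 CPM. *Irf8*, at 1826 and 1732 CPM, and *Prf1*, at 1007 and 1305 CPM, differed less. The part of depth and RNA quality in the vehicle and niacin levels was not tested.

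**Figure D5:**
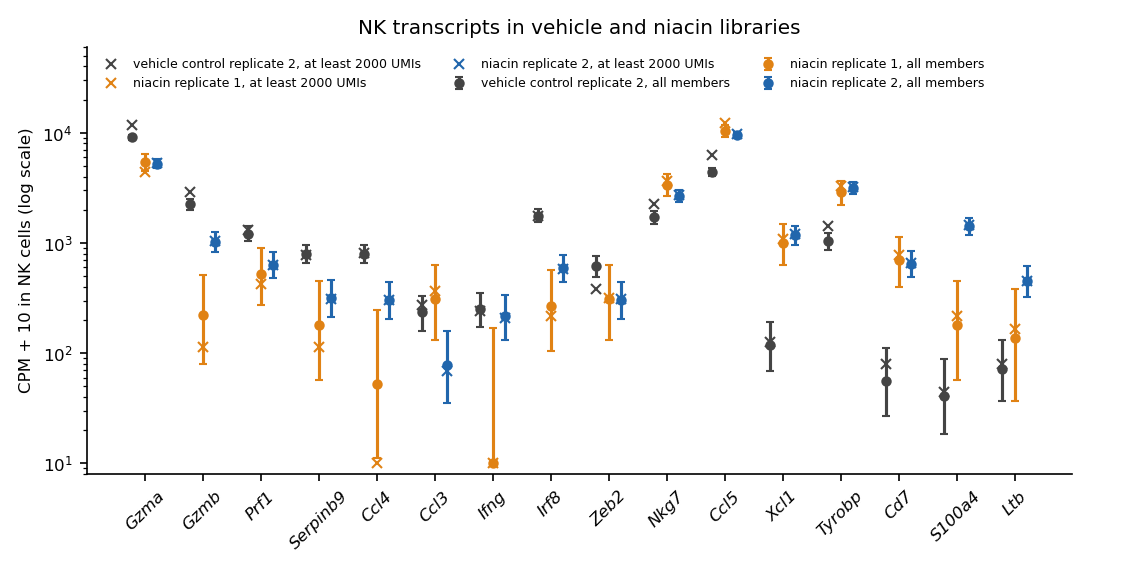
Level of 16 genes in NK cells of each library as CPM + 10 on a log axis (y); circles are all members with exact 95% Poisson intervals and crosses members with at least 2000 UMIs. *Gzmb* and *Irf8* stand highest in vehicle control 2, and *Xcl1* and *Cd7* highest in the niacin libraries.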

How the data were processed

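The deposited matrices hold UMI counts per gene and barcode, which the authors made from droplet 3′ libraries with Cell Ranger 3.1 on mm10. The counts were used as deposited. Cells with at least 200 genes and at most 20% mitochondrial UMIs were kept, and barcodes shared between libraries were removed unless 5-fold deeper than their copy. Doublets were not called. Counts were summed per library and cell class. Classes were compared with edgeR 4.0.16 (quasi-likelihood test, TMM, filterByExpr, with a block for library and p-values adjusted by Benjamini-Hochberg across every gene tested), leaving out 12 gate genes. CPM used all UMIs of the class. Exact 95% intervals and floors of 3 counts cover counting error only. On simulated counts, 82.7% of 4-fold and 12.0% of 2-fold changes were recovered in the design against CD8 T cells (2447 genes run), and 83.7% and 13.0% in that against CD4 T cells (2550 genes run). In each design the changed genes, 98 at 4-fold and 100 at 2-fold, were drawn from well covered genes alone. The simulated counts had a fixed spread and no library effect beyond depth. These recoveries therefore do not apply to genes with few UMIs.

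The libraries are pools of mice, and both comparisons share the NK sums. With the library block, p-values measure how the NK to T cell difference varies between 3 libraries. The variance is shared across genes by edgeR, and with so few libraries the p-values rest largely on that sharing. Niacin was not tested, since 1 vehicle control library was analysed here. Members, gene lists and tests were chosen with earlier results of these data known. Genes were named by rule: for each T cell comparison the 6 largest and 6 most negative called changes with the same sign in all 3 libraries and at least 50 CPM in the higher class, up to 4 genes of lowest p and 2 of highest NK level per list, and *Gzma* and *Prf1*; for niacin the 6 largest ratios past 2-fold in each direction and 8 fixed effector genes. *Lef1*, *Cd69*, *Slamf6*, *Havcr2*, *Mki67*, *Cd226*, *Hcst*, *Trbc2*, *Runx3*, *Tbx21*, *Ctsw*, *Fasl*, *Cd28*, *Ccl4* in the CD8 T cell comparison, the *Cxcr6* and *Cd3g* subsets and, for niacin, *Nkg7*, *Tyrobp*, *Irf8*, *Serpinb9*, *Zeb2* and *Itga2* fall outside it and were chosen after their values were seen. Not every gene picked by the rule is described above. Left out were *AC163354.1*, the largest positive change over CD8 T cells (log2 fold change 8.26), and *Styk1*, also higher there. *Themis* and *Klk8*, lower than in CD8 T cells, were left out too. Against CD4 T cells, *Car2* and *Spry2* (higher) and *Cd5*, *Trat1* and *Ass1* (lower) were left out. For niacin, *Ndufb5*, *Rnf157*, *Gm26917*, *Mirt1*, *Znrf2* and *Ppp1r15a* were picked by the size of their ratios and left out. Alternatives changed the normalization, the tool, the low-count filter, the block, the depth, the gate and the libraries used.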

Additional observations from a re-analysis of the deposited data

How the results depend on the processing

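No gene called in the comparisons with T cells took the opposite call under any alternative run. Against CD8 T cells (94 higher, 82 lower), DESeq2 gave 56 and 51, no replicate block 50 and 29, thinning to 1000 UMIs 22 and 26, dropping all shared barcodes 48 and 40, and dropping other-lineage cells 8 and 16. No count filter gave 158 lower and at least 2000 UMIs 134 lower. Leaving out 1 library gave 48 to 101 higher and 32 to 146 lower. Against CD4 T cells (115 and 95), the same settings gave 74 and 51, 72 and 44, 25 and 15, 67 and 59, and 19 and 28. No count filter gave 215 lower, and leaving out 1 library 84 to 131 higher and 55 to 121 lower. *S100a9* against CD4 T cells turned to -0.31 with at least 3 NK genes. The causes were not tested, beyond fewer cells and genes where cells or libraries were left out.

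The NK share of vehicle control 2 was 2.85% with at least 3 and 6.80% with at least 1 NK gene, 2.73% at up to 10% mitochondrial UMIs, 2.50% at 2000 UMIs or more and 18.9% of NK and CD3-positive cells. Niacin 1 gave 0.0729% without other-lineage cells and 3.45% of NK and CD3-positive cells, and niacin 2 gave 0.450% and 7.49%. For niacin (197 higher, 224 lower), a minimum of 10 UMIs gave 323 higher, a minimum of 50 gave 107 and 78, TMM 127 higher, thinning 63 and 40, dropping shared barcodes 34 lower and at least 2000 UMIs 120 and 125. Without niacin 1 the counts were 341 and 537, and without niacin 2 they were 313 and 498, since 1 library then had to pass. The median log2 ratio over all genes was -0.43 with TMM and 0.24 without shared barcodes. *Gzma* was found in 69.1% of vehicle control 2 members at 500 UMIs and in 100% of the deep unthinned members of niacin 1. *Prf1* was found in 32.7%, 80.0% and 85.0% of vehicle control 2 members at 500 UMIs, at 2000 UMIs and deep and unthinned, in 100% of the deep members of niacin 1, and in 78.6% and 76.9% of niacin 2 members unthinned and deep. The settings at 2000 UMIs and more, without *Cd3g* or without a mitochondrial limit were chosen after seeing the data. No paired analysis was possible for niacin because the groups share a single replicate number and no test was made.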
